A study of Rattus norvegicus with 7 samples.

Results

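Integrin subunits, laminin chains and collagen chains were followed through 12 h of sodium fluoride (NaF) in rat oral epithelial ROE2 cells. Their probe sets were found by gene symbol: a probe set annotated to 1 symbol that began as an integrin alpha or beta (Itga, Itgb), laminin (Lama, Lamb, Lamc) or collagen (Col) symbol, with a log2 signal of 6 or more on any array. Of 108 probe sets with such a symbol, 37 (26 genes) reached that signal, out of 14473 probe sets in the whole series that did, which held 8933 genes by their single symbols. Of the 37, 34 probe sets of 24 genes belonged to subunits, and 3 probe sets belonged to genes that share only the start of the symbol, Itgb1bp1 and Itgb3bp. No member reached a log2 signal of 6 on NaF arrays alone.

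The 7 arrays (an Affymetrix rat genome array, with labelling from the 3' end of transcripts) comprised 3 NaF arrays, of cells given 2 mM NaF for 3, 6 and 12 h, and 4 vehicle arrays, of cells given sterilized water (1% v/v) and labelled control, 3 h, 6 h and 12 h. The control array has no time in its label and is 0 h in the methods. ROE2 is 1 cell line, from the tongue of an 18-day fetus of a transgenic Wistar rat with a tsSV40 large T-antigen gene, and all arrays share that background. In all groups the cells were kept for 24 h at 37 °C in medium with 2% fetal bovine serum before NaF or vehicle was added at the same temperature and serum level, and the line was maintained on dishes coated with type I collagen. Each array held a pool of RNA from 3 independent experiments, and each condition was measured on 1 array. A same-time change below is the log2 signal of a NaF array minus that of the vehicle array of the same hour, and it has no replicate and no p. The test was limma, with each NaF array set against the average of all 4 vehicle arrays. It took the spread from the vehicle arrays, which the single NaF array was assumed to share, with Benjamini-Hochberg adjustment over all 14473 probe sets, and the words higher, lower, rose and fell refer to an adjusted p under 0.05. The comparisons at 3, 6 and 12 h share the same 4 vehicle arrays.

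Epithelial cells stand on a basement membrane, a sheet built mainly of laminin and type IV collagen. Integrins are receptors made of an alpha and a beta subunit that span the cell membrane and bind these proteins outside and the cytoskeleton inside. In stratified epithelia the integrin of Itga6 and Itgb4, together with the transmembrane collagen Col17a1, forms the hemidesmosome, which ties keratin filaments to a laminin whose chains include Lama3 and Lamb3. Integrins with Itgb1 bind laminins, collagens or fibronectin depending on the alpha subunit, and those with Itgav bind vitronectin, fibronectin and latent TGF-beta.

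At 12 h, 17 of the 34 subunit probe sets were lower in NaF than in vehicle and 3 were higher by limma, against 28.5% lower and 26.9% higher of all probe sets tested. The collagens held 9 of the 17 lower probe sets. The same-time change of the 34 had a median of −0.37 at 12 h, and its range ran from −2.71 (Col5a2) to 1.37 (Itgav), whereas the median over all probe sets tested was 0.00. Read by gene at the brightest probe set, 13 of 24 genes were lower, 0 were higher and 11 were not called. The shares by gene over the whole series were not counted. The NaF 12 h value lay below all 4 vehicle values in 23 of the 34 probe sets and above all 4 in 4, against 41.3% and 40.4% of all probe sets tested. In 22 it was the lowest of the 7 arrays, against 32.1% of all tested.

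The counts at the earlier times were smaller, as they were over all probe sets. At 3 h, 1 of the 34 probe sets was higher and 1 was lower, against 2.09% higher and 4.35% lower over all tested, and the median same-time change was 0.11. Both calls at 3 h were lost when any of the vehicle arrays was left out. At 6 h, 6 were higher and 4 lower, against 14.2% and 18.8% over all tested, which is near the share among the subunits, and the median was 0.14. Without the vehicle 12 h array 2 were higher and 3 lower at 6 h, and without the vehicle 6 h array 3 were higher and 1 lower.

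By size alone, 0 of the 34 subunit probe sets were 2-fold higher and 0 were 2-fold lower than vehicle of the same time at 3 h, where 0.58% and 1.01% of all probe sets were. At 6 h, 1 was 2-fold higher and 0 were 2-fold lower, against 2.4% and 3.14%. At 12 h, 2 were 2-fold higher, both of Itgav, and 5 were 2-fold lower, against 5.17% and 5.29%. The 5 were the probe sets of Col5a2, Itgb5 and Lamb1.

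**Figure D1:**
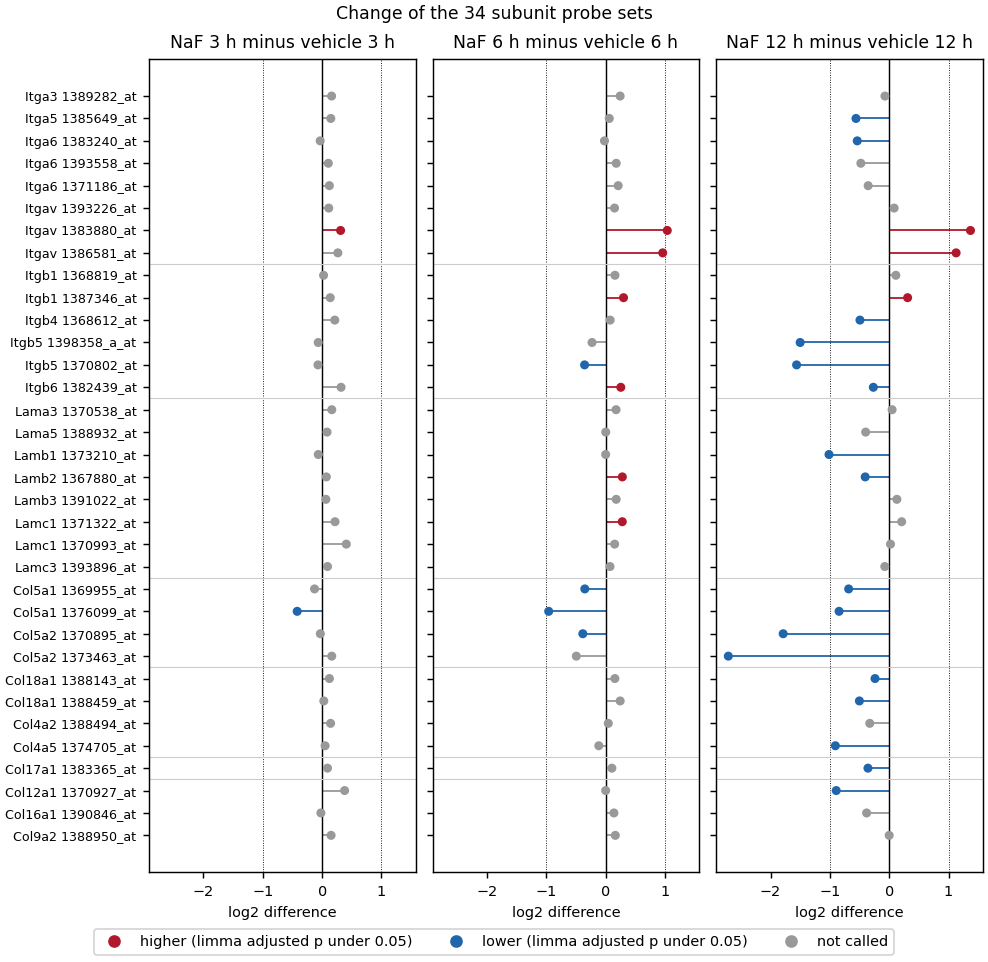
Same-time change (NaF minus vehicle, log2, horizontal axis) of the 34 subunit probe sets at 3, 6 and 12 h, with red and blue for those higher and lower by limma and grey for those not called. Dotted lines mark a change of 1, which is 2-fold. Blue points mark 9 of the 12 collagen probe sets at 12 h, with Col5a2 reaching −2.71, while 2 of the 3 Itgav probe sets stand past 1 on the other side.

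RefSeq promoter sequences (build GRCr8) were found for 20 of the 24 subunit genes. The 150 bases before the annotated start are printed for 4 of them that differed in these data: Col5a2 and Lamb1, which fell at 12 h, Itgav, whose probe sets disagreed, and Lama3, which was not called at any time. Capitals mark the motifs searched on both strands: the AP-1 site TGANTCA, the CCAAT box CCAAT, the GC box GGGCGG and the TATA box TATAAA. None of the matches in the 4 windows overlapped another.
Col5a2 (chr9:55090152-55090301, minus strand): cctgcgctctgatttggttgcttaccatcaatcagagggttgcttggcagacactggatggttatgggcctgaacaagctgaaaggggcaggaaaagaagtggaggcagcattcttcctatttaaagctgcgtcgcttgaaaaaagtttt
Lamb1 (chr6:53562946-53563095, plus strand): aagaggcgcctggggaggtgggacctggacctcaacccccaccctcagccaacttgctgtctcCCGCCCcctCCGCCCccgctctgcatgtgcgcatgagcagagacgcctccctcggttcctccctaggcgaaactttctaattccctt
Itgav (chr3:89245232-89245381, plus strand): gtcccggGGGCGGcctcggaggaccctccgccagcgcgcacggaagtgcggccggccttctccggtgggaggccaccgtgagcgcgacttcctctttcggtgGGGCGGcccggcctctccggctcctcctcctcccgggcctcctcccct
Lama3 (chr18:3952617-3952766, plus strand): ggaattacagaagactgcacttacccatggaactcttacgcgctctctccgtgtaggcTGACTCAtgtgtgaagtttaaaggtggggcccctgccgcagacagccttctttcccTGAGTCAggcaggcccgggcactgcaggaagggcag
The Lama3 window held 2 AP-1 matches, and it was the only 1 of the 20 with any, where 3.61% of 27457 rat promoters of the same length held at least 1. Both Lamb1 and Itgav held 2 GC boxes, a motif present in 13 of the 20 and in 27.8% of all promoters. Among the 9 windows of genes lower at 12 h, 5 held a GC box, and among the 11 of genes not called, 8 did. The subunit genes with no promoter sequence found, Itga6, Itgb4, Lamb2 and Col12a1, were all lower at 12 h. Only the lower group is therefore incomplete. The CCAAT box was found in 2 of the 20 (23.7% of all) and the TATA box in 1 (8.16%). The Col5a2 window held none of the 4 motifs. A match is a description of the letters only.

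The integrin alpha subunits divided at 12 h. Itga5, the alpha subunit of the main fibronectin receptor, and the brightest probe set of Itga6 were lower, 2 of the 3 Itgav probe sets were higher, and Itga3, which pairs with Itgb1 to bind laminin, was not called. Itga5 had log2 signals of 6.35, 6.21 and 5.65 in NaF at 3, 6 and 12 h, against 6.34, 6.21, 6.15 and 6.21 in vehicle (control, 3, 6 and 12 h). Only the NaF 12 h value was below all vehicle values, with a same-time change of −0.56 and a limma change of −0.58 ± 0.09 (SE, adjusted p = 0.0038).

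Itga6, brightest at 1383240_at, had 12.03, 11.88 and 11.45 in NaF and 12.08, 12.06, 11.90 and 11.99 in vehicle. Its same-time change at 12 h was −0.54 (limma −0.55 ± 0.09, adjusted p = 0.0047). At 6 h its NaF value was just under the lowest vehicle value, with no call. Its other 2 probe sets changed by −0.48 and −0.35 at 12 h and were not called (limma adjusted p = 0.29 and 0.072). Itga3 stayed between 9.79 and 10.13 in NaF and between 9.86 and 10.05 in vehicle, with a same-time change of −0.07 at 12 h.

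Itgav was the only gene of the 9 with more than 1 member probe set whose probe sets disagreed, by same-time changes that differed by 1 or more. The brightest, 1393226_at, had 10.11, 10.20 and 10.05 in NaF and 9.81, 10.00, 10.05 and 9.97 in vehicle, with same-time changes of 0.11, 0.15 and 0.08 and no call at any time. The probe set 1383880_at had 9.06, 9.72 and 9.99 in NaF, against 8.63, 8.75, 8.68 and 8.62 in vehicle. All its NaF values lay above all its vehicle values, and they climbed with time, to a 2.59-fold higher signal at 12 h (same-time change 1.37, limma 1.32 ± 0.08, adjusted p = 0.00038). Likewise 1386581_at had 8.47, 9.33 and 9.53 in NaF and 8.48, 8.21, 8.37 and 8.40 in vehicle, so that NaF stood apart at 6 and 12 h but not at 3 h. Its signal was 2.19-fold higher at 12 h (same-time change 1.13, limma 1.16 ± 0.11, adjusted p = 0.00095). Where the 3 probe sets lie in the transcript was not analysed here, so whether they read different transcript ends was not tested.

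**Figure D2:**
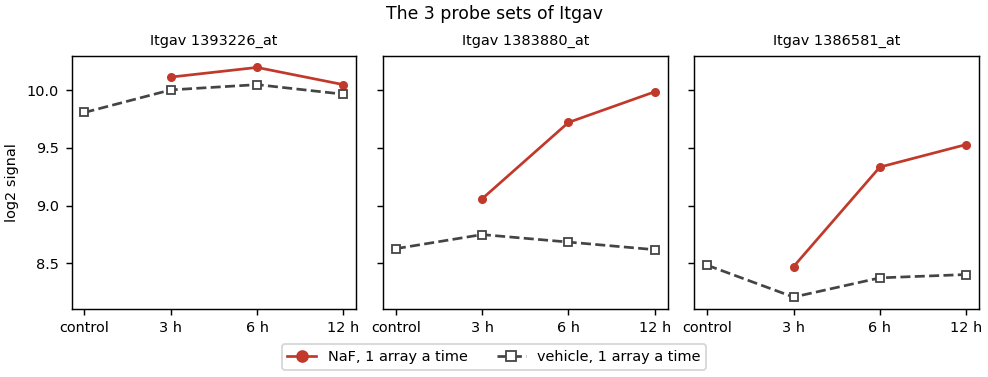
Log2 signal (vertical axis) of the 3 Itgav probe sets by time, 1 array a point, with NaF as filled circles and vehicle as open squares. At 1393226_at the NaF and vehicle lines run within 0.15 of each other at matched times, while at 1383880_at and 1386581_at NaF parts from vehicle by 1.37 and 1.13 at 12 h.

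Among the integrin beta subunits, Itgb5, Itgb4 and Itgb6 were lower at 12 h, and the brightest probe set of Itgb1 was not called. Itgb5, which pairs with Itgav in a vitronectin receptor, fell most. Its 1398358_a_at had 9.25, 9.15 and 7.89 in NaF and 9.39, 9.32, 9.38 and 9.40 in vehicle. All 3 NaF values were below all vehicle values, and the 12 h signal was 2.83-fold lower than vehicle of the same time (change −1.50, limma −1.48 ± 0.07, adjusted p = 0.00033). The other Itgb5 probe set, 1370802_at, had a same-time change of −1.56 at 12 h, within 0.06 of it. It was also lower at 6 h (limma −0.45, adjusted p = 0.027), a call lost without the vehicle control, 6 h or 12 h array.

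Itgb4, the hemidesmosomal beta subunit, had 12.52, 12.42 and 11.82 in NaF, against 12.35, 12.30, 12.34 and 12.31 in vehicle. Its first 2 NaF values were slightly above the vehicle values without a call, and the 12 h value was 0.49 below vehicle of the same time (limma −0.51 ± 0.06, adjusted p = 0.0018). Itgb6, an epithelial subunit whose integrin with Itgav binds latent TGF-beta, had 10.82, 10.86 and 10.27 in NaF and 10.49, 10.50, 10.61 and 10.53 in vehicle. It was called in both directions, higher at 6 h (same-time change 0.26, limma 0.33 ± 0.07, adjusted p = 0.023) and lower at 12 h (−0.27, limma −0.27 ± 0.07, adjusted p = 0.027). The 12 h call was lost without the vehicle 6 h array (limma adjusted p = 0.060) or the vehicle 12 h array (0.061), and the 6 h call without the vehicle 12 h array (0.059).

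Itgb1, the shared beta subunit of most collagen, laminin and fibronectin receptors, had 12.16, 12.17 and 12.11 at 1368819_at in NaF and 11.97, 12.14, 12.01 and 12.00 in vehicle, with a same-time change of 0.11 at 12 h (limma adjusted p = 0.46). Its other probe set, 1387346_at, had 10.97, 11.30 and 11.31 in NaF and 10.85, 10.83, 11.00 and 11.00 in vehicle. There the 6 and 12 h NaF values exceeded all vehicle values, by 0.30 and 0.31 at matched times, and both were higher (limma adjusted p = 0.032 and 0.018). The 6 h call was lost when any single vehicle array was left out.

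Of the 8 laminin probe sets, 2 were lower at 12 h and 0 were higher, with a median same-time change of −0.03, and the share lower was near the 28.5% of all probe sets tested. Lamb1, a beta chain of laminins found in many embryonic and adult basement membranes, had 9.65, 9.67 and 8.70 in NaF and 9.67, 9.72, 9.67 and 9.72 in vehicle. NaF and vehicle were within 0.07 of each other at 3 and 6 h, and at 12 h NaF was 2.02-fold lower (change −1.01, limma −0.99 ± 0.06, adjusted p = 0.00043). Lamb2, a related beta chain, had 9.18, 9.32 and 8.70 in NaF against 8.98, 9.11, 9.04 and 9.10 in vehicle. It was higher at 6 h (same-time change 0.28, limma adjusted p = 0.048) and lower at 12 h (−0.40, limma −0.36 ± 0.08, adjusted p = 0.012), and its 6 h call was lost without the vehicle 3, 6 or 12 h array.

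Chains of the hemidesmosome's laminin had no call at any time. Lama3 had 11.36, 11.63 and 11.36 in NaF and 11.39, 11.20, 11.45 and 11.31 in vehicle, so the groups overlapped at 3 and 12 h (same-time change 0.05 at 12 h, limma adjusted p = 0.89). Lamb3 had 12.87, 12.95 and 12.81 in NaF, against 12.81, 12.81, 12.78 and 12.68 in vehicle, a same-time change of 0.13 at 12 h (limma 0.04 ± 0.08, adjusted p = 0.69). Lamc1, the gamma chain of most other laminins, had 10.14, 10.25 and 10.14 at 1371322_at in NaF and 10.02, 9.92, 9.97 and 9.93 in vehicle. All its NaF values lay above all vehicle values, by 0.22, 0.28 and 0.21 at matched times, and only the 6 h value was called higher (limma adjusted p = 0.028; 0.073 at 12 h). That call was lost without the vehicle 6 h or 12 h array.

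Lama5, the main alpha chain of many adult epithelial basement membranes, had 9.66, 9.65 and 9.41 in NaF and 9.42, 9.58, 9.65 and 9.81 in vehicle. The vehicle values spanned 0.39, so the same-time change of −0.40 at 12 h became −0.20 against the vehicle mean and was not called (limma adjusted p = 0.29). Lamc3, at the edge of the signal minimum, stayed between 5.98 and 6.05 in NaF and between 5.96 and 6.13 in vehicle.

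The collagens fell at 12 h in 9 of 12 probe sets, with 0 higher and a median same-time change of −0.59, against 28.5% lower and 26.9% higher of all probe sets tested. By gene, 6 of 9 were lower, and the share by gene over the whole series was not counted. Both counts include Col12a1, which reached the signal minimum only on the NaF 3 h and vehicle 12 h arrays. Col5a2, a chain of the type V collagen that starts and regulates the assembly of type I fibrils, had the largest change. It had 8.22, 7.82 and 6.57 at 1370895_at in NaF and 8.17, 8.25, 8.20 and 8.36 in vehicle. NaF lay within the vehicle range at 3 h and below it at 6 and 12 h, and the 12 h signal was 3.45-fold lower (change −1.79, limma −1.68 ± 0.09, adjusted p = 0.00035). At 6 h the call of lower (limma −0.43, adjusted p = 0.019) was lost without the vehicle 6 h array.

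The dimmer Col5a2 probe set, 1373463_at, had 6.96, 6.24 and 4.18 in NaF and 6.50, 6.80, 6.74 and 6.89 in vehicle. Its NaF 12 h value was 6.55-fold lower than vehicle of the same time (change −2.71, limma −2.55 ± 0.15, adjusted p = 0.00038) and lay far under the signal minimum of 6. The gap between the 2 probe sets at 12 h was 0.92, just short of what was counted as disagreement.

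Col5a1, the partner chain, had 8.64, 8.46 and 8.16 at 1369955_at in NaF, against 8.89, 8.77, 8.81 and 8.85 in vehicle. All NaF values were below all vehicle values and went down with time, to −0.68 at 12 h (limma −0.67 ± 0.07, adjusted p = 0.0013). It was also lower at 6 h (limma −0.37, adjusted p = 0.015), a call lost without the vehicle 6 h array. Its other probe set, 1376099_at, had 7.59, 7.05 and 7.28 in NaF and 8.20, 8.01, 8.01 and 8.13 in vehicle. It was lower at all 3 times, with same-time changes of −0.42, −0.96 and −0.84 (limma adjusted p = 0.048, 0.0020 and 0.0018), so it was lowest at 6 h where 1369955_at was lowest at 12 h. The 3 h call of this probe set was 1 of the 2 that were lost without any single vehicle array.

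**Figure D3:**
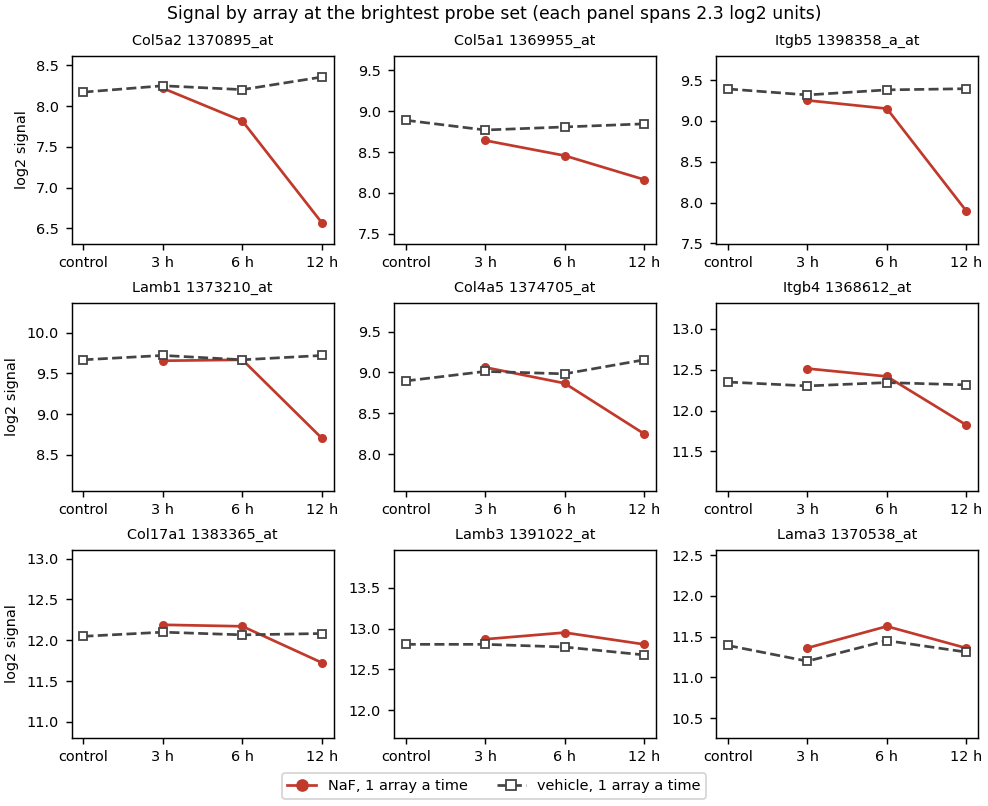
Log2 signal (vertical axis) by time at the brightest probe set of 9 genes, 1 array a point, with NaF as filled circles and vehicle as open squares. Each panel spans 2.3 log2 units, so slopes can be compared. Col5a2, Itgb5, Lamb1 and Col4a5 part from vehicle mainly between 6 and 12 h, Col5a2 and Col5a1 are lower already at 6 h (−0.38 and −0.35), and Lamb3 and Lama3 keep to the vehicle line within 0.18.

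The basement membrane collagens were lower in 3 of 4 probe sets at 12 h (28.5% over all tested). Col4a5, a type IV chain of epithelial basement membranes, had 9.06, 8.87 and 8.25 in NaF and 8.90, 9.01, 8.98 and 9.16 in vehicle. At 3 h NaF was within the vehicle range, and at 12 h it was 1.88-fold lower than vehicle of the same time (change −0.91, limma −0.76 ± 0.11, adjusted p = 0.0028). Col18a1, the precursor of endostatin, changed by −0.24 and −0.50 at its 2 probe sets, both lower, and the first call was lost without the vehicle 6 h array. Col4a2 changed by −0.33 without a call, and its vehicle values spanned 0.68, the widest of the subunit probe sets.

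Col17a1, the hemidesmosomal collagen, had 12.19, 12.17 and 11.72 in NaF, against 12.05, 12.10, 12.07 and 12.08 in vehicle. Like Itgb4 it was slightly above vehicle at 3 and 6 h without a call and lower at 12 h (change −0.36, limma −0.35 ± 0.06, adjusted p = 0.0062). Col12a1, a fibril-associated collagen near the signal minimum, had 6.25, 5.93 and 5.33 in NaF and 5.87, 5.87, 5.93 and 6.22 in vehicle, with a same-time change of −0.89 at 12 h and a limma change of −0.64 ± 0.15 (adjusted p = 0.017). Col12a1 reached the signal minimum only on the NaF 3 h and vehicle 12 h arrays, and its vehicle mean was 5.97. Its place among the members and the lower collagens therefore rests on arrays where it was high. Its probe sets below the minimum, 1398321_a_at and 1395580_at, changed by −0.08 and −0.20 at 12 h. Col16a1 changed by −0.38 and Col9a2 by 0.00 with no call.

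Set together, the hemidesmosome and epithelial basement membrane genes were measured by 10 probe sets of 7 genes. The set held the laminin chains Lama3 and Lamb3. It also held Itga3 and Itgb1, which are not among the hemidesmosome genes described above. Of these probe sets, 3 were lower at 12 h (Itga6, Itgb4 and Col17a1), 1 was higher (1387346_at of Itgb1) and 6 were not called. The share lower of this wider set was near the 28.5% of all probe sets tested. The same-time changes of the 10 at 12 h ran from −0.54 to 0.31, with a median of −0.21. Itga6, Itgb4 and Col17a1 were each lower at the brightest probe set (−0.54, −0.49 and −0.36). The dimmer probe sets of Itga6 were not called. Col7a1, the anchoring fibril collagen, reached 5.99 at most and stood just outside the signal minimum.

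Between the first and the last NaF array, 16 subunit probe sets were lower at 12 h than at 3 h of NaF and 2 were higher by limma, against 21.1% lower and 22.1% higher of all probe sets tested. The 2 were Itgav 1383880_at and 1386581_at, with changes of 0.93 and 1.06. When the 3 NaF arrays were compared as a group with the 4 vehicle arrays, 1 subunit probe set was higher and 1 lower, against 3.76% and 3.45% over all tested. These were Itgav 1383880_at (limma 0.92, adjusted p = 0.039) and Col5a1 1376099_at (−0.78, adjusted p = 0.022), and neither was called with time as a block, a fit without the control array.

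Across the 24 genes at 12 h, the order of same-time changes began with Col5a2 (−1.79) and Itgb5 (−1.50), followed by Lamb1 (−1.01), Col4a5 (−0.91), Col12a1 (−0.89) and Col5a1 (−0.68). Then came Itga5, Itga6 and Itgb4 between −0.56 and −0.49, which lie within 0.07 of each other and within the median vehicle range of 0.19. Lamc1 (0.21), Lamb3 (0.13) and Itgb1 (0.11) stood at the other end with no call. The place of Col12a1 in this order rests on its vehicle 12 h value, its highest in vehicle.

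The genes matched by the start of their symbol only were counted apart. Itgb3bp, a kinetochore protein that also binds Itgb3, was lower at 12 h at 1390604_s_at (change −0.35, limma adjusted p = 0.012) and changed by −0.27 at 1377182_at with no call. Itgb1bp1, a protein that binds the tail of Itgb1, had 9.46, 9.65 and 9.78 in NaF and 9.56, 9.46, 9.58 and 9.60 in vehicle, with no call against vehicle (limma adjusted p = 0.052 at 12 h). Below the signal minimum lay 71 probe sets, and 47 genes had no probe set above it. They included the chains of the main interstitial collagens, with highest log2 signals of 4.42 for Col1a1, 3.60 for Col1a2 and 4.0 for Col3a1, and the collagen IV chain Col4a1 (5.09). Closest under the minimum after Col7a1 were a second probe set of Itgb1bp1 (5.87) and Itga8 (5.75), and closest above it were Lamc3 (6.13) and Col12a1 (6.25).

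Other proteins of the same pathways were read at the brightest probe set of each gene. Each count at 12 h below stands against 26.9% higher and 28.5% lower of all probe sets tested. Those shares are by probe set, and none was counted by gene at its brightest probe set. Of 11 genes for folding, secretion and crosslinking of collagen, 6 were higher and 3 lower at 12 h, with a median same-time change of 0.28. They were part of 28 genes listed, of which 20 had a probe set. The other 9 with a probe set were below the signal minimum, among them the crosslinking genes Lox, Loxl1, Loxl2 and Loxl3. P4ha1 and P4hb, subunits of prolyl hydroxylase, changed by 0.57 and 0.43 and Plod3, a lysyl hydroxylase, by 0.51, all higher (limma adjusted p = 0.0016, 0.0057 and 0.0052). P4ha2, another alpha subunit of prolyl hydroxylase, was lower (change −0.38, limma −0.51 ± 0.13, adjusted p = 0.018). Serpinh1, the collagen chaperone of the endoplasmic reticulum, was lower at 12 h (change −0.72, limma adjusted p = 0.0047), and its change at 6 h was −0.73. P4hb and Ppib, which also rose (0.28, limma adjusted p = 0.012), act on many secreted proteins besides collagen.

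Of 11 genes that bind or surround laminins and integrins, 8 were lower at 12 h and 0 higher, with a median of −0.49, where 28.5% of all probe sets tested were lower. They were part of 17 genes listed, of which 14 had a probe set. Hspg2, Fbln1 and Vtn were below the signal minimum and were not read. Dst, the hemidesmosomal plakin that links Itgb4 to keratin, changed by −0.42, −1.66 and −1.57 at 3, 6 and 12 h. Dag1, the laminin receptor dystroglycan, changed by −1.19 and Nid2, which bridges laminin and type IV collagen, by −0.90 at 12 h. All 3 were lower at 12 h (limma adjusted p = 0.00034, 0.00039 and 0.00082). Fn1, fibronectin, changed by −0.03 with no call.

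Of 22 focal adhesion genes, which couple integrins to actin, 12 were lower at 12 h and 0 higher, with a median of −0.36, where 28.5% of all probe sets tested were lower. They were part of 27 genes listed, of which 25 had a probe set. Fermt3, Tgfb1i1 and Kank2 were below the signal minimum. Kank1, which binds talin at the rim of adhesions, changed by −1.78 (limma adjusted p = 0.00048). Rsu1, a partner of the adhesion adaptor Lims1, changed by −1.26 (limma adjusted p = 0.0014). Lims2 changed by −1.02 at matched times and by −0.78 against the vehicle mean (limma adjusted p = 0.032). It reached the signal minimum only on the vehicle 6 and 12 h arrays (6.02 and 6.07, against 5.50 in the control). Its place among the 12 therefore rests on the group where it was high. At 6 h the same list had 3 higher and 3 lower, near the 14.2% and 18.8% of all tested.

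**Figure D4:**
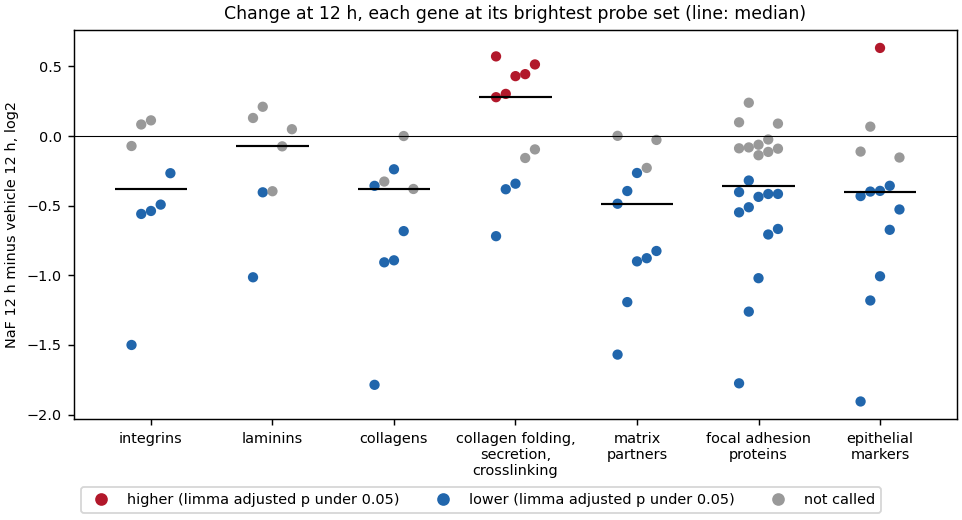
Same-time change at 12 h (NaF minus vehicle, log2, vertical axis) of each gene at its brightest probe set, by group, with red and blue for higher and lower by limma and grey for not called. Horizontal lines are group medians. The collagen folding, secretion and crosslinking group is the only one with a median above 0 (0.28). Genes below the signal minimum are not drawn, which left out 9 of that group, among them Lox, Loxl1, Loxl2 and Loxl3.

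The label of an epithelial line was checked with marker genes. All 13 epithelial markers with a probe set were above the signal minimum, among them the keratins Krt5 and Krt14. At 12 h, 9 of the 13 were lower and 1 higher, against 28.5% and 26.9% of all probe sets tested, led by Krt15 (−1.91), Dsg2 (−1.18) and Tp63 (−1.01). The vehicle values of Krt15 climbed to 7.94 at 12 h, against 6.97 in the control, and its change against the vehicle mean was −1.28. The log2 of the summed signal of the 13 markers, in which the brightest genes weigh most, ranged from 15.83 to 16.10 in NaF, lowest at 12 h. In vehicle it ranged from 16.10 to 16.15. This decline moved with that of the matrix and receptor genes, and its part in their changes was not tested. Of 12 mesenchymal markers 10 were below the signal minimum, among them Pdgfra, Dcn and Lum. The log2 of their summed signal ranged from 12.46 to 12.72 in NaF and from 12.63 to 12.72 in vehicle. It was mostly that of S100a4, which alone had 12.51 to 12.62 in vehicle. Acta2, which was lower (−0.74), and S100a4 were above the minimum. Endothelial markers were all 6 below the minimum. Leukocyte markers were above it only for Cd14 (1 of 8) and skeletal muscle markers for Myh1 and Acta1 (2 of 8), while Ptprc and Ckm were below. In a bulk sample, fewer cells of a kind and less RNA per cell cannot be told apart. The median log2 signal of the arrays lay between 5.32 and 5.35, and the correlation of each NaF array with vehicle of the same time was 0.995, 0.989 and 0.983 at 3, 6 and 12 h, whereas pairs of vehicle arrays correlated between 0.996 and 0.999.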

How the data were processed

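Gene expression was measured on 7 arrays, each with RNA pooled from 3 independent experiments. The authors hybridized biotin-labeled cRNA to the arrays and processed the scans in GeneSpring GX (version and normalization: not given in the sources consulted). The table deposited by the authors held log2 signals, 1 per probe set and array and already normalized, and no further scaling was applied. Gene symbols came from an older platform annotation, and all 26 member symbols were current in RefSeq GRCr8. Members, gene lists and named genes were chosen with earlier results of these data known.

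The linear models were fitted with limma 3.58.1 (lmFit, eBayes; R 4.3.3) to 14473 probe sets with a log2 signal of 6 or more on any array, after 57 array control probe sets were left out. The fit had 3 residual and 2.49 prior degrees of freedom and was tested on simulated data. Changes of the vehicle arrays over time count as spread, and p-values cover the spread between these pools. The number of arrays limits the precision. Each gene stands at its brightest member probe set unless a probe set is given. Named were the 4 genes of each family with the largest same-time change at 12 h, the hemidesmosome genes, Itgav, genes with probe sets that disagree, and up to 3 genes of each other list. P4ha2, Ppib, Fn1 and genes with values near the signal minimum were added after their values were seen. P4hb was also named outside this rule, and P4ha3, with a slightly larger change (0.44, higher), was not named. Alternatives were other signal filters, normalizations, baselines, fold limits, a variance trend, time as a block and leaving out each array.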

Additional observations from a re-analysis of the deposited data

Results flagged for a closer look

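Within NaF, 12 of the 19 named genes differed between the 12 h and the 3 h array by more than the vehicle spread allowed (limma contrast, adjusted p under 0.05), where 21.1% of all probe sets tested were lower and 22.1% higher. Most of the 19 had been named for their change at 12 h, on the same NaF 12 h array, so the count is a description and not independent support. At their brightest probe sets all 12 were lower at 12 h of NaF than at 3 h of NaF, while 2 dimmer probe sets of Itgav were higher (0.93 and 1.06). The log2 difference, 12 h minus 3 h, was −1.65 for Col5a2 and −1.36 for Itgb5. It was −0.95 for Lamb1, −0.91 for Col12a1 and −0.81 for Col4a5. The integrin subunits Itga5, Itgb4, Itga6 and Itgb6 differed by −0.70, −0.69, −0.58 and −0.56, and Lamb2, Col5a1 and Col17a1 by −0.48, −0.48 and −0.46. A check for an outlying vehicle array flagged 0 of the 19 genes, but 4 vehicle arrays leave such a check little power. Col12a1, not flagged, had 6.22 in vehicle at 12 h and 5.87 to 5.93 on the other vehicle arrays. Among the NaF arrays it reached the signal minimum only at 3 h (6.25), the reference for its difference above.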

How the results depend on the processing

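The 12 h counts (3 higher, 17 lower) ran between 3 and 4 higher and between 14 and 18 lower under every alternative run, with 3 to 4 and 15 to 18 when a vehicle array was left out. At 3 h the count of 1 higher became 0 with no signal filter or with array medians set equal and 3 with a variance trend, and the count of 1 lower became 0 with no signal filter or with quantile normalization. Both were 0 without any vehicle array in turn (range 0 to 0). At 6 h no signal filter, which tests more probe sets, gave 2 higher and 2 lower, and leaving out a vehicle array gave 2 to 5 higher and 1 to 5 lower. For NaF against vehicle over the times, time as a block, which pairs NaF and vehicle of the same hour and drops the control array, gave 0 higher and 0 lower, and leaving out a NaF array gave 0 to 3 higher and 0 to 4 lower, with 3 and 4 without the NaF 3 h array. At 2.5-fold, 0 subunit probe sets were higher at 6 h, and 1 was higher and 4 lower at 12 h. At 1.5-fold, 2 were higher and 1 lower at 6 h, and 2 were higher and 9 lower at 12 h. The share over all probe sets was not counted at these fold limits, so the counts describe the subunits only. With the vehicle mean or the control array as baseline, 1 subunit probe set was 2-fold lower at 6 h. The cause of these shifts was not tested. Of the named genes at 12 h, 0 of 19 changed sign with the vehicle mean as baseline or with quantile normalization, and 0 of 7 with an average over the probe sets of a gene. That average gave Itgav 0.86 in place of 0.08.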
